A study of Mus musculus with 12 samples.

Results

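The regions described are accessible sites that were called in both wild-type (WT) and Runx1 knockout (KO) C2C12 cells and whose deposited fold enrichment was higher in KO. Each of the 24800 intervals of the shared list, which are WT intervals, was paired with the KO peak it overlapped, and 24065 pairs had exactly 1 partner each way. The log2 ratio of KO fold to WT fold was taken for each pair, and the median over all pairs (-0.20) was subtracted to give a centred ratio. The members are the 1923 pairs with a centred ratio of 0.5 or higher, 7.99% of all pairs, and they are called higher pairs below. At the opposite threshold there were 1474 lower pairs (6.13%), and 20668 pairs lay between the thresholds. The members were chosen by the measured fold in the very libraries described, so their fold, their significance in the peak call and their counts are descriptions and carry no test. With no median subtracted, 791 pairs were higher and 4045 lower, which turned the share of higher pairs among all called pairs from 56.6% to 16.4%.

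C2C12 is an established mouse myoblast line, and the series holds 12 ATAC-seq samples in 4 groups of 3, by genotype and by culture. The peak lists used here come from day 0 in growth medium with 20% fetal bovine serum, where WT cells are compared with cells labelled Runx1KO; the day 2 differentiation samples were not analysed here. How the knockout was made, which exon it removes and whether the KO cells are 1 clone are not given in the sources used here. Every interval and value in the lists carries the name of replicate 1 of its genotype, so each value below has 1 library per genotype and no replicate error, and a difference between WT and KO cannot be told apart from a difference between those 2 libraries.

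In ATAC-seq the Tn5 transposase inserts adapters into open DNA, and a peak marks a stretch cut more often than its surroundings. Runx1 is a transcription factor that binds DNA with its partner Cbfb and often acts beside ETS and AP-1 factors, and it can activate or repress the genes it binds. In muscle it is known to be induced by injury and denervation and to act in proliferating myoblasts. Peaks near gene starts are mostly promoters, and peaks in introns and between genes include enhancers.

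The promoters below overlap higher pairs, some only in part, and are shown because their DNA can be read next to a known start. They are the 200 bases before the RefSeq start of the transcript (assembly GRCm38.p6), read 5′ to 3′ on the gene's strand. Capitals mark matches to the motifs searched, on either strand, which were RUNX TGTGGT, ETS CCGGAA, AP-1 TGANTCA, TEAD GGAATG, E-box CAGCTG, SP/KLF GGGCGG, NFY CCAAT, CRE TGACGTCA and NRF1 GCATGCGC. The first 5 had the highest ratios among members at a RefSeq promoter. Bmpr1a, Cdk6 and Net1 were added after their values were seen, because they belong to the gene lists and gene ranks described further on.
Zfp345: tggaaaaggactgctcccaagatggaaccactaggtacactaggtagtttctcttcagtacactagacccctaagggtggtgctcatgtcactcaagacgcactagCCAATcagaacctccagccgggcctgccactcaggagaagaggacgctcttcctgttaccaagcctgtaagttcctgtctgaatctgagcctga
Fyco1: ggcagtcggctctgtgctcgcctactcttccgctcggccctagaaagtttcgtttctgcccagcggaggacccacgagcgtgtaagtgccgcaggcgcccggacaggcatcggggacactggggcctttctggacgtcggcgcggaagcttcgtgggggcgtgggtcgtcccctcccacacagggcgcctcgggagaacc
Fgd4: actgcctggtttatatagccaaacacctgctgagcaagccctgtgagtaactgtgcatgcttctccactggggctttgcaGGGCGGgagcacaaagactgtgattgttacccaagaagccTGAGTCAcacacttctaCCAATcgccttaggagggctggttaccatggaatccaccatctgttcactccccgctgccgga
Igbp1: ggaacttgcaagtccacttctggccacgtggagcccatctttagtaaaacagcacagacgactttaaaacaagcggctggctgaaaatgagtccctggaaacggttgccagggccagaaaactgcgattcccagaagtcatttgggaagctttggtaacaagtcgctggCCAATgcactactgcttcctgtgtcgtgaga
Fam8a1: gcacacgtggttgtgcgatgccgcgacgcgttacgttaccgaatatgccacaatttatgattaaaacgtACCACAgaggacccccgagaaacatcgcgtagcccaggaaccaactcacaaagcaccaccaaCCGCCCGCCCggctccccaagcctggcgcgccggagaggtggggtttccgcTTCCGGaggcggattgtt
Bmpr1a: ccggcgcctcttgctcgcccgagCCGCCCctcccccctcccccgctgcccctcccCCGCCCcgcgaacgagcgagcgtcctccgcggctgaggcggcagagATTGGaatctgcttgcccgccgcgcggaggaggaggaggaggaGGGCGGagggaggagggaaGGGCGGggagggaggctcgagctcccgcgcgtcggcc
Cdk6: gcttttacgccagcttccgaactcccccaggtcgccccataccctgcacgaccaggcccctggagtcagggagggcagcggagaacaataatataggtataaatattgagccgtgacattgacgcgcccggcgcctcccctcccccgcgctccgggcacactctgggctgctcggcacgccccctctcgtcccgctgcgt
Net1: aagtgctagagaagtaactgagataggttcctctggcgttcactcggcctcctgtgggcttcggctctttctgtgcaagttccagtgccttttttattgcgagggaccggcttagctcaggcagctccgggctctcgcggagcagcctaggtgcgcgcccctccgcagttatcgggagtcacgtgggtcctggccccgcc

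Zfp345 encodes a zinc finger protein, and its window chr2:150485064-150485263 held an NFY match. Fyco1, an adaptor for vesicle transport in autophagy, had no match in chr9:123851662-123851861. The window of Fgd4, an exchange factor for the GTPase Cdc42, spanned chr16:16560220-16560419 at a start inside the gene and held an AP-1, an SP/KLF and an NFY match. Igbp1, a regulatory partner of protein phosphatases, had an NFY match in chrX:100494091-100494290. Fam8a1 was the one printed promoter with a RUNX match and also held an ETS match and 2 overlapping SP/KLF matches, in chr13:46669277-46669476. The windows of Bmpr1a, a type I receptor for bone morphogenetic proteins (chr14:34502547-34502746), Cdk6, a kinase of the G1 phase (chr5:3343693-3343892), and Net1, an exchange factor for RhoA (chr13:3893582-3893781), differed in their matches. Bmpr1a held 4 SP/KLF matches and an NFY match, while Cdk6 and Net1 had none. At Fyco1, Cdk6 and Net1, the printed promoters without a match, most of the printed bases lay outside the WT interval of the pair. A match is a description of these letters and not a bound site.

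At Zfp345 the pair at chr2:150485045-150485234 had a deposited fold of 5.09 in WT and 12.9 in KO. At Fyco1 (chr9:123851163-123851690) the folds were 5.09 and 12.5, and at the Fgd4 start (chr16:16560236-16560542) they were 5.73 and 12.7. The Igbp1 pair (chrX:100494086-100494382) had 5.86 in WT and 13.0 in KO, and the Fam8a1 pair (chr13:46669139-46669501) had 5.77 and 12.2. These 5 promoters were weak peaks in WT and above the KO median of 9.23 in KO. The 3 added promoters were weak in both libraries, with folds of 4.66 and 6.65 at Bmpr1a (chr14:34502474-34503136), 4.78 and 6.46 at Cdk6 (chr5:3343811-3344189) and 5.56 and 7.35 at Net1 (chr13:3893313-3893663). The WT summit lay 64 bases before the start at Zfp345, 105 before it at Fgd4 and 54 before it at Fam8a1. At Fyco1 it lay 152 bases after the start and at Cdk6 274 bases after it, so in these 2 cases the summit is outside the printed bases.

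Over all 1923 higher pairs the median deposited fold was 6.75 in WT and 9.68 in KO, against 10.8 and 9.39 in the pairs between the thresholds. The median deposited −log10 q was 8.65 in WT and 18.7 in KO. The higher pairs were thus weak sites of the WT list and sites of ordinary strength in the KO list. Their WT fold was under the median of all pairs in 1770 (92.0%), and their KO fold was under the KO median in 816 (42.4%). The centred ratio had a median of 0.66 and ranged from 0.50 to 1.84. It was at least 0.75 in 629 pairs, at least 1 in 164 and at least 1.5 in 9. Before centring the KO fold exceeded the WT fold in all 1923 pairs, as it did in 4598 (22.2%) of the pairs between.

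The fold and the p-value of a peak together give back the number of fragments stacked at its summit and the local background it was tested against, if the fold is (count + 1)/(background + 1) and the p-value is a Poisson upper tail. For all 24065 pairs a whole count met both deposited values in each list within 0.001 on the −log10 p scale, where neighbouring whole counts differ by a median of 0.56 in WT and 0.54 in KO. In the higher pairs the median summit count was 14 in WT and 26 in KO, against 29 and 29 in the pairs between and 31 and 17 in the lower pairs. The median local background was 1.08 in WT and 1.66 in KO. Expressed as centred log2 ratios, the summit counts of the higher pairs differed by a median of 0.79 and their backgrounds by 0.10. The KO count exceeded the WT count in 1922 of 1923 pairs. The lowest background in the KO list was 1.44 times that in the WT list (0.823 against 0.571), and 328 KO and 321 WT values stood at it. The KO background was above the WT background in 97.0% of higher pairs, 90.3% of pairs between and 71.7% of lower pairs. Whether the 2 libraries differ in depth, and whether that moved the folds, was not tested.

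Counts of this size carry a large counting error. For the higher pairs the median counting error of the log2 ratio (1 SD, from both counts) was 0.47, which is close to the threshold itself. The centred ratio exceeded 2 counting errors in 235 higher pairs (12.2%, 95% Wilson interval 10.8 to 13.8), in 296 lower pairs (20.1%, 18.1 to 22.2) and in 16 of 20668 pairs between. For the other 1688 higher pairs the size of the ratio was within 2 counting errors. The classes were cut by this same ratio. These shares therefore do not measure how far the pairs as a whole depart from counting error. All intervals here cover the counting of fragments or of regions only, and fragments amplified by PCR are not independent molecules.

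**Figure D1:**
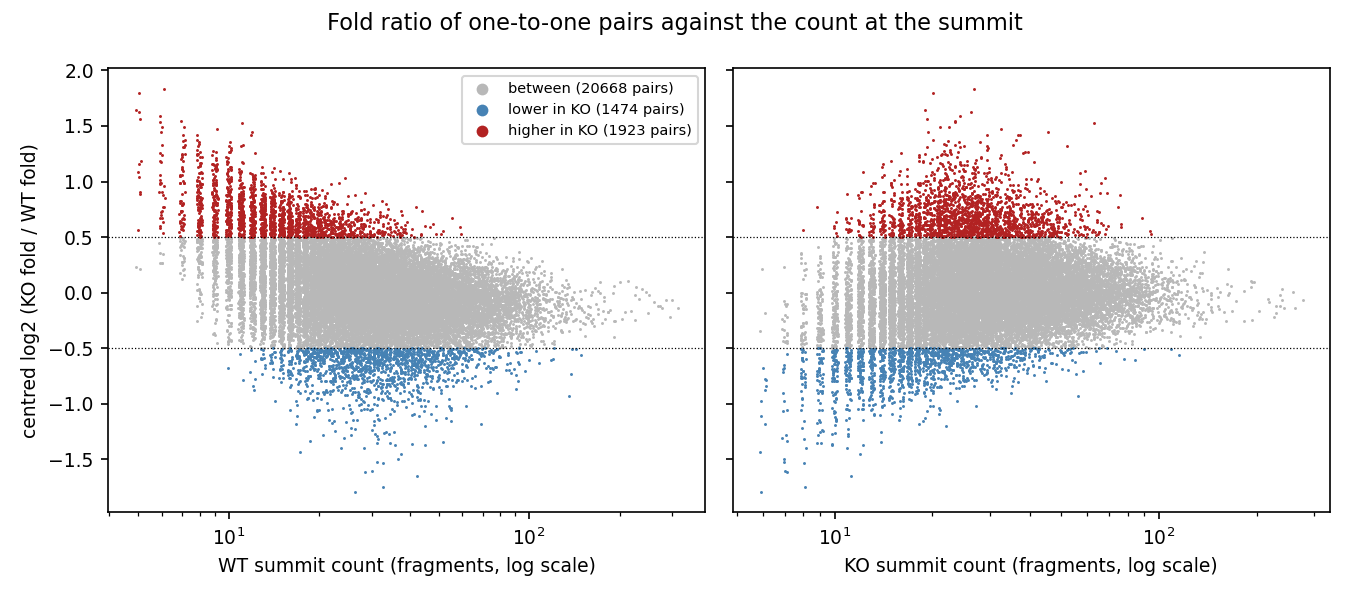
Centred log2 ratio of KO fold to WT fold (vertical axis) against the recovered summit count in WT (left) and KO (right), in fragments on a log axis, with 1 point per pair, spread slightly sideways so that equal counts can be seen. Dotted lines mark the thresholds. Higher pairs (red) have few WT fragments, with a median of 14, and their largest ratios stand at WT counts near 5 to 12.

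The rule itself ties membership to peak strength, because the WT fold is the denominator of the ratio and the KO fold its numerator. In the lowest decile of WT fold 801 of 2407 pairs (33.3%) were higher, and in the highest decile 2 of 2407 (0.0831%). By KO fold the share was 1.99% in the lowest decile, 10.6% in decile 5 and 6.40% in the highest. Pairs were also ranked by the mean log2 fold, which weights both lists equally. This gave 13.6% in the lowest decile and 0.748% in the highest, beside 6.94% and 1.5% for lower pairs. The median counting error of the ratio also fell along this ranking, from 0.50 to 0.27, and its part in the fall of both shares was not tested. In that ranking the higher pairs outnumbered the lower pairs in each of the 7 weakest deciles and were fewer in each of the 3 strongest. The median centred ratio was 0.07 in the weakest decile and -0.04 in the strongest, and its part in this order was not tested. With centring within 10 classes of strength, 53.1% of all called pairs were higher, beside 56.6% with a single median.

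**Figure D2:**
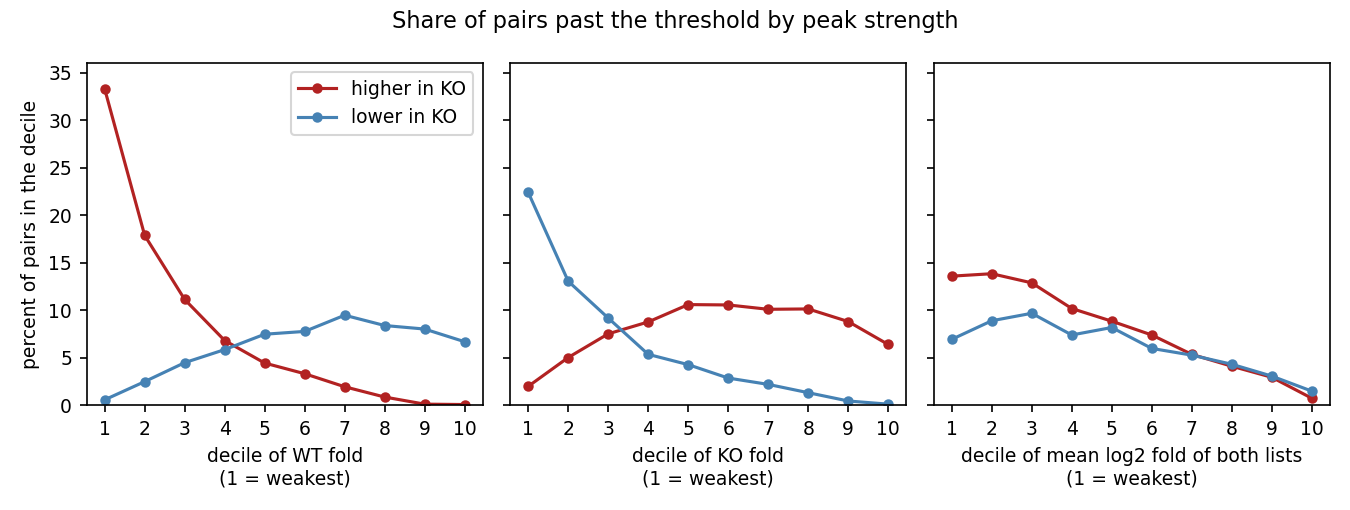
Percent of pairs that were higher (red) or lower (blue) in KO, by decile of WT fold, of KO fold and of the mean log2 fold of both lists. The falls along WT fold (red, from 33.3% to 0.0831%) and KO fold (blue) follow from the ratio that chose the pairs. Along the mean both shares are lowest in the strongest decile, at 0.748% and 1.5%.

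Interval width was not used to choose the members, although it comes from the same peak calls and follows peak strength. Higher pairs had a median width of 307 bp in WT and 392 bp in KO, while pairs between had 440 and 450 bp and lower pairs 409 and 348 bp. The KO interval was the wider one in 1394 higher pairs (72.5%, 70.5 to 74.4), in 51.7% of pairs between and in 31.0% of lower pairs. The WT and KO summits of the higher pairs lay a median of 34 bp apart, beside 29 bp in the pairs between. They were within 100 bp in 1657 higher pairs (86.2%), so for 266 pairs the overlapping intervals had their summits farther apart.

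At the threshold the pairs just inside were a site in Lama2, a laminin chain (chr10:27084728-27085016, folds 8.28 and 10.2), one near Cxxc5 (chr18:35895635-35895822, 4.46 and 5.48) and one in Slc12a7, a potassium chloride cotransporter (chr13:73763424-73763765, 7.46 and 9.17). Just outside were sites in Ptk2, the focal adhesion kinase (chr15:73243241-73243443, 4.86 and 5.97), 38.2 kb from the nearest end of Myc (chr15:62028254-62028887, 8.86 and 10.9) and near 9130401M01Rik (chr15:58018128-58018424, 6.66 and 8.18). All 6 had a centred ratio that rounds to 0.50.

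The Runx1 gene itself was looked at first among single genes. Within the gene or its 10 kb flanks lay 12 pairs, of which 2 were higher and none was lower. The site at chr16:92788528-92788752 had a fold of 4.65 in WT and 6.89 in KO, with summit counts of 12 and 19 and a centred ratio of 0.77 (counting error 0.51). The site at chr16:92623875-92624255 had folds of 5.60 and 7.49, counts of 33 and 51 and a centred ratio of 0.62 (counting error 0.32). The other 10 pairs had centred ratios from -0.27 to 0.24, including the pair at one end of the gene at chr16:92825830-92826223 with folds of 6.46 and 5.40. Peaks inside Runx1 do not show which part of the gene was edited and check no label.

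The largest ratios were found at weak WT peaks. The highest, 1.84, belonged to a site at chr2:125540718-125540845, 9.08 kb from Cep152, a centrosome protein. Its fold was 4.40 in WT and 13.7 in KO, and its summit count was 6 (exact Poisson interval 2.20 to 13.1) in WT and 27 (17.8 to 39.3) in KO. Next came sites 1.15 kb from Ces2c, a carboxylesterase (1.80), 123 kb from Ctso, a cathepsin (1.64), in Nckap5 (1.62), 25 kb from Serpine3, a serpin (1.59), and in Rabgap1l, a regulator of Rab GTPases (1.56). Each of these 5 had 5 or 6 WT fragments at the summit and 19 to 26 in KO. The site at 290 kb from Meis1, a homeobox factor (chr11:18590691-18591045), had folds of 4.46 and 11.2. The site in Prickle2, a planar cell polarity gene, was the one of the first 10 with over 10 WT fragments. It lay at chr6:92381145-92381380 with a fold of 6.59 in WT and 16.5 in KO, and counts of 11 (5.49 to 19.7) and 62 (47.5 to 79.5). These sites were picked for their ratio, so the gap between their counts is part of their selection.

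Among the 255 higher pairs that were at or above the list median of −log10 q in both lists (16.1 in WT and 17.6 in KO), the leading sites had ratios from 0.99 down to 0.82 and counts of 19 to 28 in WT and 37 to 68 in KO. The first lay 25.6 kb from Irx6, an Iroquois homeobox gene, at chr8:92706447-92706592. Its folds were 9.35 and 16.1, its counts 23 (14.6 to 34.5) and 67 (51.9 to 85.1), and its summits 19 bp apart. The second was 171 kb from Ptbp2, a splicing regulator of neurons and muscle (chr3:119955723-119956330, folds 9.97 and 17.1). The site 5.55 kb from Map4k4, a kinase upstream of JNK, at chr1:39895128-39895566 had folds of 11 and 17.8. The site nearest to Ptchd3 lay 4.61 kb from it and that nearest to Lgsn 19.2 kb, and 2 sites lay in Sntg1 and Glis1. The remaining 3 were far from any protein-coding gene end, the closest being Grik3 at 120 kb, Fut10 at 256 kb and Cbln2 at 374 kb. None of these 10 sites was within 1 kb of a gene end, and all had a KO fold over 15.9.

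Position relative to genes was not used to choose the members. Higher pairs had their centre within 1 kb of a gene end in 431 cases (22.4%, 20.6 to 24.3), elsewhere in a gene in 900 (46.8%, 44.6 to 49.0) and between genes in 592 (30.8%, 28.8 to 32.9). In the pairs between the thresholds these shares were 36.7%, 40.4% and 23.0%. The lower pairs were like the higher pairs at gene ends (23.4%, 21.3 to 25.6) and had 26.7% (24.5 to 29.0) between genes. A low share at gene ends was thus seen at both thresholds and was not particular to the sites higher in KO. Strong peaks were more often at gene ends, so the shares were also taken within 5 equal classes of strength (mean log2 fold). The share of higher pairs at gene ends was under that of the pairs between in all 5 classes, with 22.9% against 28.6% in the weakest and 27.0% against 47.3% in the strongest. Between genes, the higher pairs of the weakest class had 26.7% (23.4 to 30.2), with 25% in the pairs between and 26.2% in the lower pairs. In classes 2 to 5 the higher pairs had 33.0%, 31.2%, 35.1% and 34.8%, the pairs between 24.4%, 24.2%, 22.3% and 19.6%, and the lower pairs 27.5%, 27.9%, 27.3% and 20.9%.

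**Figure D3:**
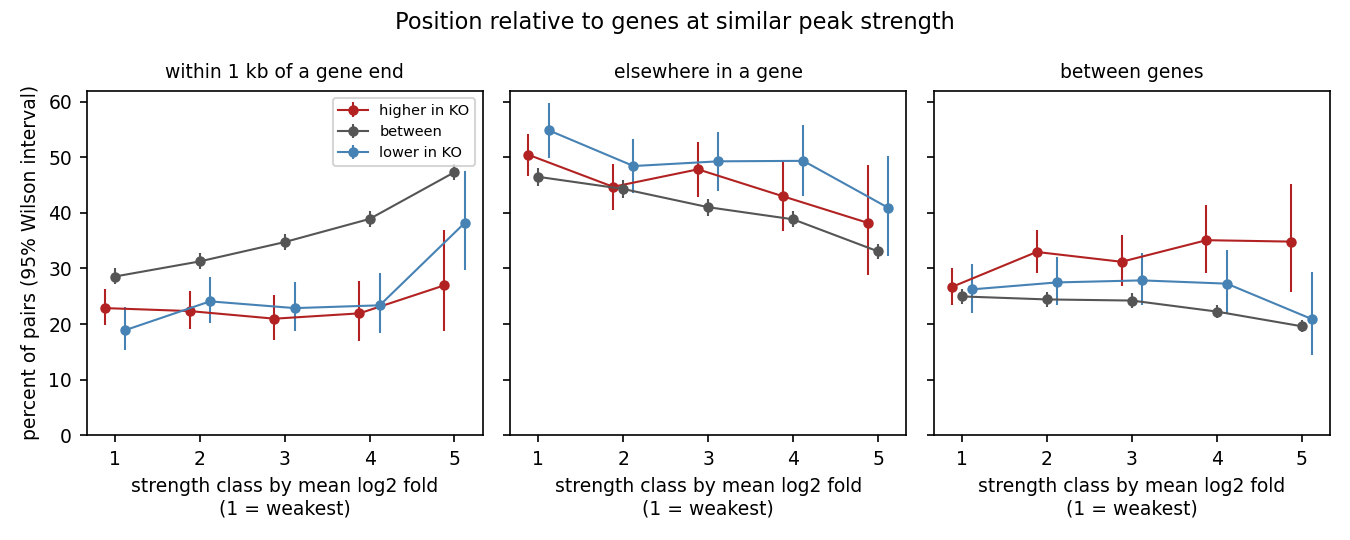
Percent of pairs (with 95% Wilson intervals) within 1 kb of a gene end, elsewhere in a gene and between genes, by strength class (the mean log2 fold cut into 5 equal classes), for pairs higher in KO (red), lower in KO (blue) and between the thresholds (grey). In the left panel both coloured lines run under the grey line in every class.

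Distances to the nearest transcription start were measured for the 23256 pairs on chromosomes with RefSeq promoter windows in the table used, which holds none for chromosome 18. The median distance was 19.8 kb for the 1862 higher pairs, 10.8 kb for pairs between and 16.8 kb for lower pairs. Of the higher pairs, 19.0% lay within 1 kb of a start, beside 31.8% of the pairs between and 18.7% of the lower pairs. At over 100 kb lay 15.5% (13.9 to 17.2) of the higher pairs, 10.1% of the pairs between and 11.7% (10.2 to 13.5) of the lower pairs.

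The higher pairs overlapped the nearest RefSeq promoter window (250 bases before to 50 after the start) in 319 cases (17.1%), the pairs between in 29.5% and the lower pairs in 16.4%. SP/KLF matches stood in 62.4% (56.9 to 67.5) of the 319 windows, in 69.8% of the windows of the pairs between and in 64.8% of those of the lower pairs, and in 35.9% of all 32585 promoter windows of the table. NFY matches were in 33.2% (28.3 to 38.6) of the members' windows, 43.6% of those of the pairs between, 40.3% (34.3 to 46.7) of those of the lower pairs and 37.6% of all windows. ETS matches were in 26.6%, 32.4%, 29.2% and 15.0%. RUNX matches were in 13.8% (10.4 to 18.0) of the members' windows, 12.4% of those of the pairs between, 17.2% (12.9 to 22.5) of those of the lower pairs and 16.6% of all. NRF1 matches were in 9.72% (6.93 to 13.5) of the members' windows, 6.21% of those of the pairs between, 7.30% (4.60 to 11.4) of those of the lower pairs and 2.71% of all. AP-1 matches (6.58%) and E-boxes (15.7%) had intervals that held the share in the pairs between and that in all promoters. TEAD matches were in 15.0% (11.54 to 19.39) of the members' windows and 11.50% of those of the pairs between. They were in 11.6% of those of the lower pairs and 14.6% of all. CRE matches were in 5.33% (3.35 to 8.37), 3.77%, 3.00% and 1.80% in the same order. No motif was tested. The median GC content was 60.3% in the members' windows and 61.7% in those of the pairs between. These counts concern 319 promoters and say nothing of the DNA of the other members.

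Higher pairs were found on all 20 chromosomes. Their share of pairs ran from 4.94% (3.80 to 6.40) on chromosome 17 to 10.1% (8.16 to 12.4) on chromosome 16, with 9.91% on chromosome 3 and 8.32% on the X chromosome. Of the 3844 neighbouring pairs of higher pairs along the chromosome, 360 were higher too (9.37%, 8.48 to 10.3), beside 7.99% over all pairs. Of the 2945 neighbours of lower pairs, 198 were lower (6.72%, 5.87 to 7.69), beside 6.13% over all pairs. For higher pairs the order turned with a −log10 q of at least 10 in both lists, at 2.90% (2.18 to 3.84) of neighbours beside 4.36% of pairs. Most higher pairs stood alone, in 1586 cases. There were 138 runs of 2 higher pairs in a row, 16 of 3, 2 of 4 and 1 of 5. A KO specific peak lay within 10 kb of 88 higher pairs (4.58%, 3.73 to 5.60), close to the 4.18% of the pairs between. A WT specific peak lay within 10 kb of 270 (14.0%, 12.6 to 15.7), beside 17.6% of the pairs between and 17.7% of the lower pairs.

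The longest run held 5 higher pairs over 679 kb of chromosome 4, from chr4:64575857 to chr4:65254373, between Tnc, a matrix glycoprotein, and Pappa, a protease that cleaves IGF binding proteins. Its WT folds were 7.31, 9.13, 7.61, 6.37 and 7.89 and its KO folds 12.8, 14.0, 11.4, 9.16 and 11.5 in genome order. The last 2 sites lay inside Pappa, and all 5 had a centred ratio between 0.73 and 1.01. The run of 4 at chr5:107124554-107471206 held the 3 pairs of Tgfbr3 and 1 in Btbd8. The run of 4 at chr6:92381145-93267227 began with the Prickle2 site named above, had a second Prickle2 site (folds 5.71 and 7.95) and ended with sites 313 and 323 kb from Adamts9, a matrix metalloprotease.

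Of the 12684 protein-coding genes with a pair in the gene or within 10 kb, 1482 had a higher pair, 124 had at least 2 and 180 had a higher and a lower pair. The largest number, 4, was found at 2 genes, and 16 genes had 3; of these 16, the 6 with the fewest pairs in all are described, which favours genes whose pairs were mostly higher. Dusp10, a phosphatase that inactivates p38 and JNK kinases, had 4 higher among 8 pairs and none lower. Its WT folds in genome order were 7.60, 5.14, 7.42 and 13.0, and its KO folds were 9.94, 7.41, 9.96 and 17.3. The centred ratios lay between 0.59 and 0.73, each within 2 counting errors, and the strongest site, at chr1:184084931-184085272, had 28 WT and 43 KO fragments. Tenm3, a large adhesion protein gene, had 4 higher pairs among 17, with folds of 5.06, 3.79, 5.20 and 8.05 in WT and 7.41, 4.93, 6.67 and 13.4 in KO, and 1 lower pair.

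Myoz2 encodes calsarcin-1, a Z-disc protein of striated muscle that binds calcineurin. All 3 of its pairs were higher, at chr3:123007478-123007693 with folds of 5.09 and 8.78, at chr3:123018882-123019182 with 10.7 and 14.9 and at chr3:123042345-123042881 with 5.14 and 7.83. Cacnb2, a beta subunit of voltage-gated calcium channels, also had 3 higher pairs of 3, with WT folds of 8.17, 7.75 and 5.09 and KO folds of 13.7, 10.1 and 8.76. Tgfbr3, the TGF-beta co-receptor betaglycan, had 3 of 3 as well, with 6.83, 6.38 and 5.98 in WT and 11, 8.09 and 9.71 in KO. In these 3 genes every pair was a higher pair. Ties were broken by the smallest number of pairs, so a count of 3 of 3 comes from the choice of genes.

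B3galt1, a galactosyltransferase, had 3 higher pairs of 4, with the widest gap at chr2:67785380-67785562 (folds 5.09 and 11.1, counts 7 and 22). Net1 had 3 of 4, all within 6.89 kb in its gene body and at the promoter printed above, with folds of 8.49, 6.24 and 5.56 in WT and 10.8, 8.32 and 7.35 in KO. The predicted gene Gm2115 had 3 of 5, with 7.27, 5.47 and 8.94 in WT and 9.46, 8.21 and 12.5 in KO.

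**Figure D4:**
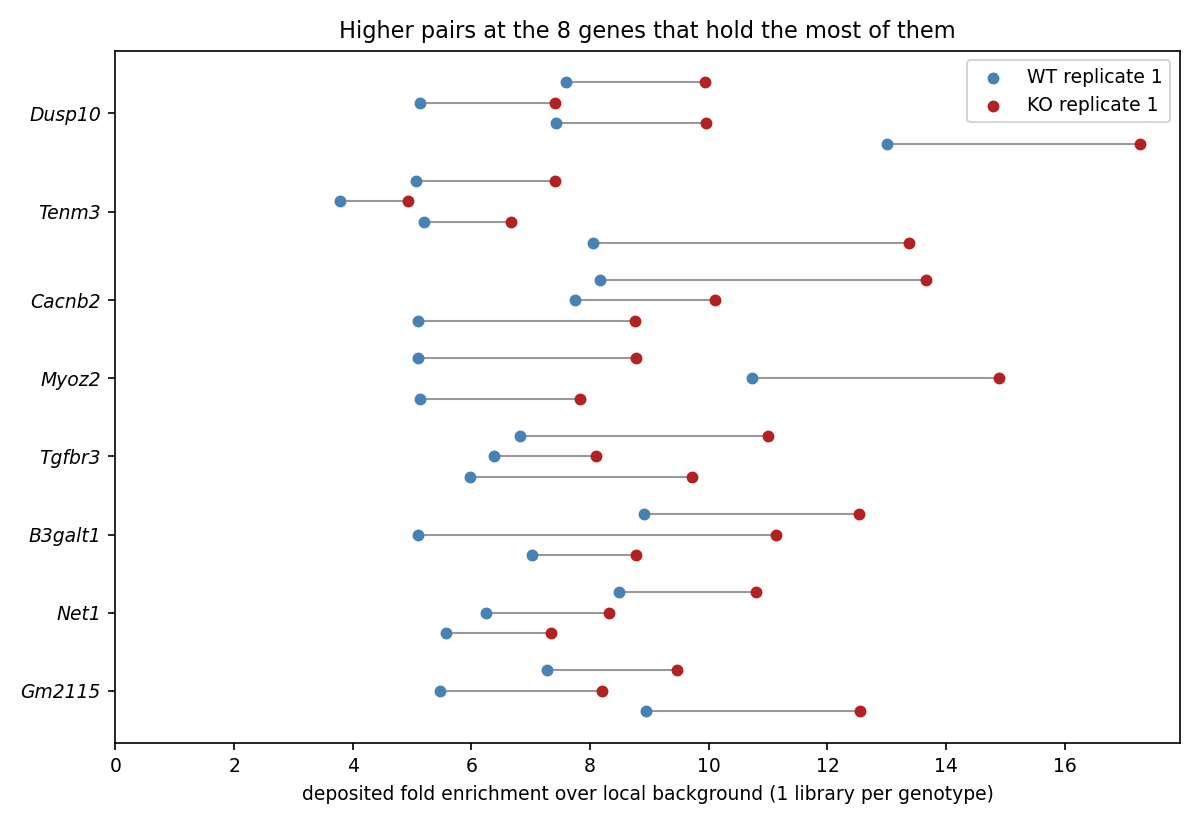
Deposited fold enrichment over local background (horizontal axis) of each higher pair at 8 protein-coding genes, the 2 with 4 higher pairs and the 6 with the fewest pairs among the 16 with 3, with WT replicate 1 in blue and KO replicate 1 in red, joined by a line for each pair. All pairs shown have the red point on the right, as their selection requires, and most WT folds are under 10.

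The higher pairs were also counted at 216 genes in 14 lists of pathways and factors. Over all lists 34 of 503 pairs were higher (6.76%), and over all protein-coding genes 7.17% of 18164. The largest share was at growth factor receptors and the IGF axis, with 7 of 38 pairs (18.4%, 9.22 to 33.4), 3 lower pairs and a median centred ratio of 0.14. With no median subtracted it was 5.26% (2 of 38, 1.46 to 17.3), beside 2.85% over all protein-coding genes. With each pair given to the gene of the nearest end it was 13.2% (6.55 to 24.8) beside 7.99%. Both of these intervals held the share over all protein-coding genes. With a −log10 q of at least 10 in both lists the share was 21.4% (10.2 to 39.5) beside 3.79%. The other lists had intervals that held 7.17%, and no list was tested.

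Met, the receptor of hepatocyte growth factor, had 3 higher pairs among 8. At chr6:17495222-17495628 the folds were 9.82 and 14.1, at chr6:17506889-17507077 they were 8.25 and 10.8, and at chr6:17549582-17550020 they were 8.94 and 11.2. All 3 Met sites lay inside the gene and were above the KO median fold of all pairs. Fgfr2, a fibroblast growth factor receptor, had 1 of 3 (8.33 and 12.6), Fgfr1 had 1 of 2 (9.41 and 13.1, in the neighbouring Letm2), and the insulin-like growth factor receptor gene Igf1r and the insulin receptor gene Insr had 1 of 4 each (7.41 and 9.71, and 7.73 and 10.4). The lower pairs of this list were 1 each at Fgfr4, Pdgfrb and Egfr.

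Among TGF-beta pathway genes 6 of 52 pairs were higher and 4 lower. Besides the 3 of the co-receptor Tgfbr3, Bmpr1a had 1 of 3, at its promoter. Ltbp1, which holds latent TGF-beta in the matrix, had 1 of 12, inside the gene (4.72 and 6.82). Skil, a repressor of SMAD factors, had 1 of 2, inside the gene (7.84 and 11.6). The ligand genes Tgfb1, Tgfb2 and Tgfb3 and the receptor genes Tgfbr1 and Tgfbr2 had no higher pair, and 3 of the 4 lower pairs were at the signal transducer Smad3.

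ETS factors had 4 higher pairs of 31. Etv1 had both of its pairs higher, at chr12:38778657-38779057 with folds of 7.47 and 10.1 and at chr12:38843875-38844259 with 6.73 and 12.8. The second had summit counts of 10 (4.80 to 18.4) and 34 (23.5 to 47.5) and a centred ratio of 1.13 (counting error 0.50). Ets1 had 2 of 5, with 6.96 and 9.24 at chr9:32716154-32716387 and 5.15 and 8.79 at chr9:32749895-32750047. RUNX factors and cofactors had 3 of 33, of which 2 were those of Runx1. The other was 1 of the 13 pairs of Runx2, the bone factor of the family (4.68 and 6.70). The partner gene Cbfb had no higher and 2 lower pairs of 3.

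Of the myogenic factors, 3 of 37 pairs were higher (8.11%). Mef2a had 1 of 5 (8.12 and 10.7) and Mef2c 1 of 2 (6.65 and 9.05), both inside the gene. Mef2d had 1 of 4, at 8.45 kb from the gene (8.69 and 11). All are genes of MEF2 factors that act with Myod1. Myod1 itself had 2 pairs with ratios of -0.01 and -0.16. Notch pathway genes had 3 of 45 (6.67%), beside 7.17% over all protein-coding genes. Maml3 had 2 of 11 (7.19 and 9.26, and 11.1 and 13.8) and Maml2 had 1 of 9 (7.18 and 9.43). Both encode coactivators of the Notch complex, and the coactivator gene Maml1 had 0 of 4. Matrix genes had 3 of 63 higher and 4 lower, all at collagen genes. Col1a1 had 1 of 4 higher (4.48 and 6.0), at 8.1 kb from it and within 1 kb of an end of another gene. Col4a1 had 1 of 7 (5.43 and 8.68) and Col4a2 had 1 of 11 (4.55 and 6.58, with summits 543 bp apart). The lower ones were at Col1a2, Col4a2, Col5a1 and Col6a3.

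The remaining lists had 1 higher pair or none. AP-1 factors had 1 of 24, at Mafk (5.60 and 7.93), contractile and calcium-handling genes 1 of 19, in Myl4 (5.21 and 7.05), and fusion and adhesion genes 1 of 25, at the cadherin gene Cdh2 (8.28 and 11.2). Cell cycle genes had 1 of 31, the Cdk6 promoter, and Wnt pathway genes 1 of 30, in Tcf7l2 (3.98 and 4.95), beside 5 lower pairs. TEAD factors, YAP and their targets had 0 of 33 (interval up to 10.4%), and factors of other mesenchymal lineages had 0 of 42 (up to 8.38%) with 5 lower pairs. Neither of these 2 intervals excluded the 7.17% of all protein-coding genes.

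**Figure D5:**
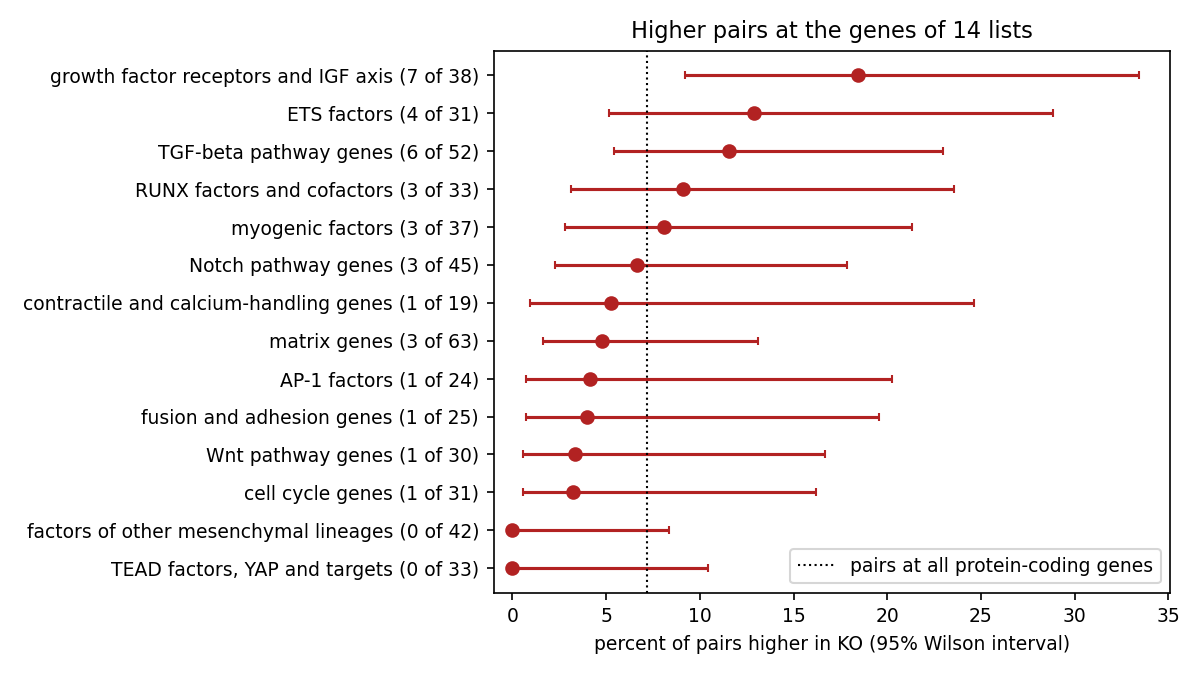
Percent of pairs that were higher in KO at the genes of each of 14 lists (point, with its 95% Wilson interval), with the number of higher pairs and of all pairs in brackets and the 7.17% of all protein-coding genes as a dotted line. The interval of growth factor receptors and the IGF axis stands to the right of the line and the other 13 intervals include it.

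Of 6 myoblast markers, 5 had peaks in both lists. Among myoblast markers Myod1, Cdh15 and Des had 2 WT and 2 KO peaks each, Itga7 had 4 and 3, Chrna1 3 and 2, and Myf5 none. Of the endothelial markers, Pecam1 had 2 and 1 peaks, Cdh5 1 and 2, Kdr 1 and 0 and Tie1 1 and 1. Of the blood markers, Spi1 had 1 and 1, and Ptprc, Gata1 and Cd3e had none. A peak near a gene does not measure its expression.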

How the data were processed

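ATAC-seq peak lists of C2C12 cells in growth medium were used, from replicate 1 of WT and of KO. Per the submitters' processing notes the build is mm10; the aligner, the peak caller and the handling of duplicates and of the Tn5 offset are not given in the sources used here, and each can move peak edges and counts. The deposited fold (a ratio over local background), −log10 p, −log10 q and summit offset are the authors' values for each peak. The sequencing depth is unknown. An overlap of 1 bp made a pair. Summit counts and backgrounds were recovered from fold and −log10 p; 59 WT and 3 KO pairs had 2 solutions, and the one with the larger background was taken. The script was tested on simulated data, where the count was recovered for 100% of 5000 peaks. Those peaks were made with the same assumed formula and with larger counts than most higher pairs had in WT. They therefore do not check the formula or the recovery of low counts. Genes and promoters are from RefSeq GRCm38.p6. A pair belongs to a gene if its centre lies in the gene or within 10 kb. Overlaps were checked against bedtools 2.31.1; Python 3.11.15, numpy 2.4.6, pandas 2.3.3, scipy 1.17.1 and matplotlib 3.10.9 were used.

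The members and the gene lists were chosen with earlier results of these data known. The text names Runx1, the 10 members with the highest ratio, the 10 highest among those strong in both lists, the 8 protein-coding genes with the largest number of members (ties broken by the fewest pairs, then by name), list genes with at least 2 members (those with 1 were added after their values were seen), the 3 longest runs, 3 pairs on each side of the threshold and 5 promoter members. No test between genotypes was made, because each genotype has values of 1 library. Alternatives were other thresholds, no centring or centring by strength, −log10 q in place of fold, stricter pairing, a filter on weak peaks and other gene distances.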

Additional observations from a re-analysis of the deposited data

How the results depend on the processing

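No paired analysis was possible because the lists hold values of 1 library per genotype, and for the same reason no replicate could be left out. Of 273 values under alternatives, 151 stayed within the counting interval of the reported value (for the number of higher pairs, within 1.5 times it) and 122 did not. In each list of 5 values that follows, the order is the number of higher pairs, their median WT width, their percent at gene ends, the percent of their neighbours that were higher and the percent of list pairs that were higher; the reported values are 1923, 307 bp, 22.4%, 9.37% and 6.76%. A threshold of 0.25 gave 5497, 350 bp, 28.1%, 24.0% and 20.7%. A threshold of 1 gave 164, 246.5 bp, 13.4%, 1.83% and 0.199%. No centring gave 791, 271 bp, 17.1%, 5.95% and 2.78%. The −log10 q in place of fold gave 4885, 344 bp, 26.5%, 23.0% and 19.1%. A −log10 q of at least 10 in both lists gave 795, 357 bp, 23.1%, 2.90% and 3.96%. Summit counts in place of fold, an alternative chosen after seeing the data, gave 2913, 317 bp, 21.9%, 17.0% and 10.3%. The share of higher pairs over all pairs moved too, from the reported 7.99%. In the order of these 6 settings it was 22.8%, 0.681%, 3.29%, 20.3%, 4.36% and 12.1%. Over all protein-coding genes it was 7.17% as reported, and 21.4%, 0.573%, 2.85%, 18.8%, 3.79% and 10.7% in the same order. Reciprocal overlap of 50% gave a width of 325 bp and summits within 100 bp one of 297 bp. Gene ends within 500 bp held 19.0% and within 2 kb 27.8% of higher pairs. Centring within 10 classes of strength gave 1799 higher pairs. Why these values moved was not tested, apart from the thresholds and distances, which change the counts by construction. Low counts in WT limit the precision of most members.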
